A study of Mus musculus with 12 samples.

Results

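REST, the repressor element 1 silencing transcription factor, and the corepressors it recruits are described here by 10 genes in the piriform cortex, the part of the cortex that receives most of the output of the olfactory bulb. The genes are Rest itself, the CoREST genes Rcor1, Rcor2 and Rcor3, the scaffold genes Sin3a and Sin3b, the histone deacetylase genes Hdac1 and Hdac2, the histone demethylase gene Kdm1a (LSD1) and the histone methyltransferase gene Ehmt2 (G9a). They were found by symbol in the deposited count table, where all 10 were present among 48795 genes, and all 10 passed the filter on low counts that left 17725 genes to test. RNA was sequenced from 12 mice of C57BL/6 background at 12 months of age. Of these, 6 carried 1 copy of the Q140 knock-in allele (heterozygotes) and 6 were wild type, with 3 females and 3 males of each genotype. Each library is a separate animal, and the labels name no treatment. The Q140 allele places an expanded CAG repeat in the mouse Htt gene, so mutant huntingtin is made from the gene's own promoter in every cell that uses it, beside 1 normal allele. Animals are named below by genotype and by a number from 1 to 6 in the order of deposit, so the numbers pair nothing.

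REST binds a DNA element called RE1 in and near genes used by neurons and holds them down outside the nervous system and in neural precursors. Its amino-terminal part recruits SIN3 proteins with HDAC1 and HDAC2, and its carboxy-terminal part recruits CoREST, which brings the same deacetylases together with LSD1. G9a adds repressive methyl groups to histone H3. Normal huntingtin is known to keep REST in the cytoplasm of neurons, and mutant huntingtin to let more of it into the nucleus. The location of a protein is not seen in RNA levels.

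The core of the RE1 element was searched as AGCACCNNGGACAG, where N is any base, on both strands of 32851 RefSeq promoter windows on GRCm38.p6, each reaching from 250 bases before a start site to 50 after it. The letters occurred in 17 windows (0.0517%) of 16 genes. Promoter windows were at hand for 8 of the 10 genes, in 10 windows, and 0 of these held the letters. Among the matches were the windows of Gria2, an AMPA receptor subunit, and Gad2, which makes the inhibitory transmitter GABA. A pair of matches came from the window of Gm32659, which lies inside the neuronal gene Snap25, in an intron 838 and 888 bases past its start. The sites shown are those of Snap25, Gria2 and Gad2, as textbook genes of the synapse, and of the 3 other tested genes that passed in the comparison of genotypes, which were picked after their values were seen. Each is written 5′ to 3′ on the strand that carries the letters, with the conserved letters of the core in capitals:
Snap25 site 1: tcAGCACCctGGACAGgagt
Snap25 site 2: ttcAGCACCgcGGACAGcgat
Gria2: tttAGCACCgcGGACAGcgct
Gad2: ggtAGCACCctGGACAGcgcg
Hrh3: ggcAGCACCacGGACAGcgcc
Osbp2: ttcAGCACCgcGGACAGcggc
Ttc9b: atcAGCACCggGGACAGcgcg
The cores lie at chr2:136714291-136714304 and chr2:136714341-136714354 for Snap25, chr3:80802992-80803005 for Gria2, chr2:22622164-22622177 for Gad2, chr2:180104577-180104590 for Hrh3, chr11:3774794-3774807 for Osbp2 and chr7:27653942-27653955 for Ttc9b. All are on the plus strand except that of Ttc9b. In the GENCODE M21 annotation the Ttc9b core is in an exon, the Osbp2 core in an intron, and those of Gria2, Gad2 and Hrh3 between genes, just before the start. A match of letters is a description and does not show that REST binds there.

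Total counts ran from 19587208 to 35198602 per animal. Htt, the targeted gene, followed the labels: its levels were 180 to 204 CPM (read counts scaled to a common library size with edgeR's TMM factors) with a median of 198 CPM in wild types, and 143 to 164 CPM with a median of 150 CPM in Q140. The groups did not overlap (log2 fold change -0.37, SE 0.0428, edgeR adjusted p = 0.000203). All animals were on plate 1, where 1 column held Q140 animals 1 to 4 and wild types 1 to 3, and another the rest. With the column as a covariate, 1617 of 17725 genes passed by edgeR at an adjusted p below 0.05, against 1982 without it. The names of the animals carry prefixes whose meaning the labels do not state, and which differ in number between the genotypes: RFckQ in 4 wild types and 1 Q140 animal, RFQ in 1 wild type and 3 Q140 animals, FMQ in 1 wild type, and none in Q140 animals 1 and 2. The names also hold a number, with no stated meaning, that some animals share. It is 150 in wild type 3 and Q140 animal 4, 161 in wild type 4 and Q140 animals 3 and 5, and 147 in wild types 1 and 5. If it marks relatives, these animals are not independent.

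Of the 10 genes, 1 passed the comparison of Q140 with wild type and was higher (Hdac1), 0 were lower and 9 did not pass. Over all genes tested 11.2% passed at an adjusted p below 0.05, 4.5% higher and 6.69% lower, so 1 of 10 is near the background and says nothing particular about these genes. At an unadjusted p below 0.05 there were 4 of 10, Hdac1, Rest, Rcor2 and Hdac2, against 26.7% of all genes. By DESeq2 again 1 of 10 passed, against 13.7%. The median log2 fold change was 0.0001 for the 10 genes and 0.0045 for all genes tested. In bulk tissue, fewer cells of a type and less RNA per cell cannot be told apart.

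**Figure D1:**
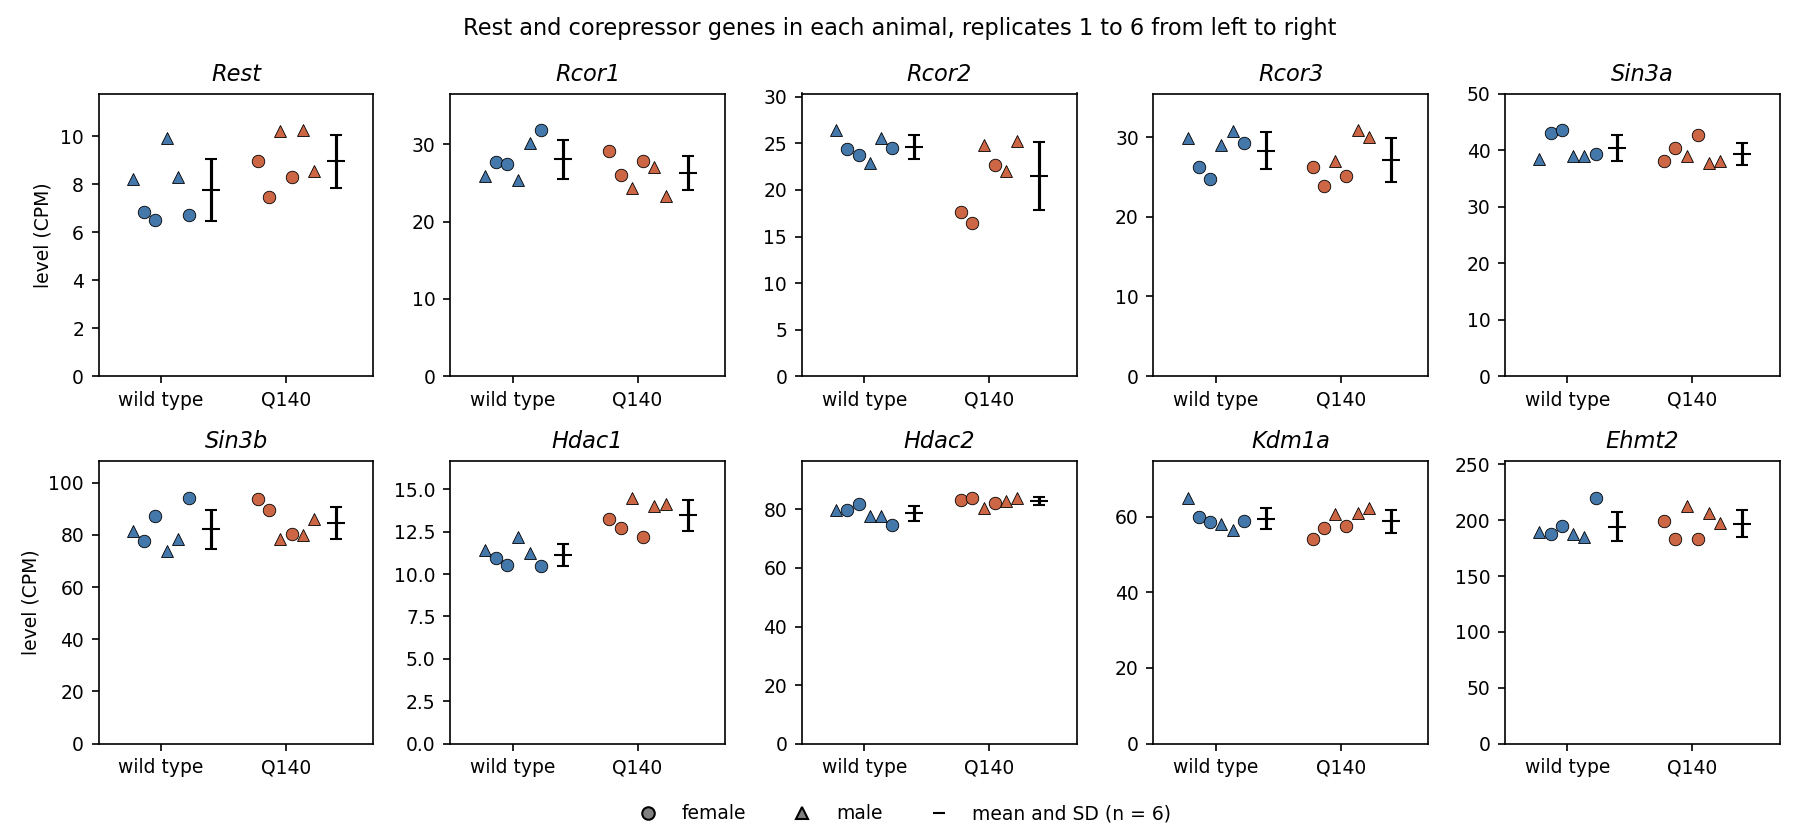
Level of each of the 10 genes in CPM (y axis, from 0) in the 6 wild type and 6 Q140 animals (x axis, replicates 1 to 6 from left to right), with circles for females, triangles for males, and the mean with SD at the right of each group. Hdac1 lies higher in Q140 within each sex, and Rcor2 is low in Q140 animals 1 and 2, at 17.6 and 16.5 CPM.

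Rest (ENSMUSG00000029249, GRCm38 chromosome 5, 77265491 to 77286432), the DNA-binding repressor, had few reads, 172 to 357 per animal, so that counting alone gives a coefficient of variation of 5.29% to 7.62%. Wild types had 6.53 to 9.92 CPM with a median of 7.55 CPM, and Q140 animals 7.46 to 10.3 CPM with a median of 8.76 CPM. The groups overlapped over most of their range. The fitted level was 1.16 times that of wild types (95% interval 1.03 to 1.31, log2 fold change 0.22, SE 0.0798, edgeR adjusted p = 0.0975), which did not pass. Without wild type 4, the wild type with the highest value, the log2 fold change was 0.27 and passed (edgeR adjusted p = 0.0386). With libraries scaled by their totals alone it was 0.26 and passed as well (edgeR adjusted p = 0.0423).

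Rest also ran with sex. Wild type females had 6.53, 6.73 and 6.86 CPM and wild type males 8.23, 8.33 and 9.92 CPM. Q140 females had 7.46, 8.31 and 8.97 CPM and Q140 males 8.54, 10.2 and 10.3 CPM. In wild types every male was above every female, while in Q140 the lowest male was below the highest female. The mean over both genotypes was 7.48 ± 0.976 CPM in females and 9.25 ± 0.9749 CPM in males (SD, n = 6 each). Males exceeded females by 0.31 on the log2 scale (SE 0.0798, unadjusted p = 0.00153, edgeR adjusted p = 0.114), which did not pass.

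Markers of other cell types stood beside these values. The summed level of 7 meningeal fibroblast markers (genes of the membranes on the cortex surface) ran from 143 to 2043 CPM in wild types and from 998 to 2488 CPM in Q140. None of the 7 markers passed by genotype and none was at 0. The 3 animals with the highest Rest levels, Q140 animals 5 and 3 and wild type 4, had meningeal sums of 1471, 2488 and 2043 CPM. They are also the 3 animals whose names hold the number 161. The 3 with the lowest, wild types 3, 6 and 2, had 143, 661 and 1044 CPM. The sum of 8 endothelial and mural markers, of which 1 was higher, was 442, 549 and 540 CPM in the former and 356, 397 and 423 CPM in the latter. Between them, by falling Rest, were Q140 animals 1 and 6, wild type 5, Q140 animal 4, wild type 1 and Q140 animal 2. Their meningeal sums were 998, 1021, 1239, 1699, 829 and 1012 CPM. Their endothelial and mural sums were 506, 438, 458, 462, 397 and 442 CPM. Rest spanned only 7.46 to 8.97 CPM among these animals, and neither sum fell with it at every step. The part of meningeal, endothelial and mural cells in the Rest level was not tested. Without wild types 3 and 6, chosen after the data were seen, the log2 fold change of Rest was 0.18 (edgeR adjusted p = 0.325). These animals had the lowest Rest levels, so a smaller difference follows from the choice. The fit kept wild type 2 as the only wild type female, and 862 of 18044 genes passed in it, against 1982 of 17725 with all animals.

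By the measure fixed for likeness, Pearson's r of log2 CPM over the 12 animals among 15486 other genes of at least 1 CPM, the genes most like Rest were Mecom (r = 0.962), 2310015A10Rik (0.954), Mrvi1 (0.942), Tgif1 (0.927) and Lama2 (0.924). Mecom is a zinc finger factor, Tgif1 a homeobox repressor of TGF-beta signalling, and Lama2 the laminin alpha chain of muscle and vessel basement membranes. Of these 5, Lama2 (log2 fold change 0.27, edgeR adjusted p = 0.0403) and 2310015A10Rik (0.22, adjusted p = 0.0461) were higher in Q140 and the other genes did not pass. The animals share genotype, sex and tissue composition in this measure.

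The CoREST genes encode the scaffold that joins REST to LSD1 and the deacetylases. Rcor2 (ENSMUSG00000024968, chromosome 19, 7267325 to 7275225) had 22.9 to 26.4 CPM with a median of 24.5 CPM in wild types, and 16.5 to 25.2 CPM with a median of 22.4 CPM in Q140. Q140 animals 1 and 2 had 17.6 and 16.5 CPM, below every other animal, and the other 4 Q140 animals, at 21.998 to 25.2 CPM, lay among or just below the wild types. The log2 fold change was -0.21 (SE 0.0830, edgeR adjusted p = 0.126) and did not pass. Without these 2 animals, which are also the ones whose names carry no prefix, it was -0.07 (SE 0.0598, edgeR adjusted p = 0.563).

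Rcor1 (ENSMUSG00000037896, chromosome 12, 111039351 to 111115901) had 25.4 to 31.8 CPM in wild types and 23.3 to 29.1 CPM in Q140, with medians of 27.6 and 26.5 CPM. Its log2 fold change was -0.09 (SE 0.0607, edgeR adjusted p = 0.344). Rcor3 (ENSMUSG00000037395, chromosome 1, 192098546 to 192138062) had 24.7 to 30.7 CPM and 23.8 to 30.8 CPM, with medians of 29.1 and 26.6 CPM. Its log2 fold change was -0.06 (SE 0.0525, edgeR adjusted p = 0.498). For both genes the genotypes overlapped. Exons of Rcor3 share 336 bases with the antisense gene Gm10516, 667 with Gm26879 and 133 with Gm37055, and no source used here gives the strand setting of the counting, so that their reads cannot be separated from those of Rcor3.

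Because FPKM (fragments per kilobase of gene, scaled to the library total) takes account of gene length, it lets the 3 CoREST genes be compared in a library. Rcor2 took 52.8 ± 1.74% of their summed FPKM in wild types and 50.6 ± 5.02% in Q140, Rcor1 33.2 ± 1.99% and 34.6 ± 4.798%, and Rcor3 13.98 ± 0.934% and 14.8 ± 1.06% (SD, n = 6 each). Rcor2 had the highest FPKM of the 3 in all 12 animals. In Q140 animals 1 and 2 its share was 44.4% and 45.4%, against 49.98% to 56.1% in the other 10 animals. By CPM its wild type mean was the lowest, at 24.6 against 28.1 for Rcor1 and 28.3 for Rcor3, so its lead rests on the gene length used. The annotated exons of Rcor2, Rcor1 and Rcor3, merged over transcripts, hold 3157, 5684 and 13622 bases.

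The SIN3 scaffolds varied little with genotype. Sin3a (ENSMUSG00000042557, chromosome 9, 57072040 to 57128366) had 38.5 to 43.6 CPM in wild types and 37.7 to 42.8 CPM in Q140, with medians of 39.1 and 38.6 CPM. Its log2 fold change of -0.04 (95% interval -0.12 to 0.05, edgeR adjusted p = 0.594) changed sign with the scaling of the libraries. Sin3b (ENSMUSG00000031622, chromosome 8, 72723285 to 72758201) had 73.7 to 94.2 CPM and 78.4 to 93.7 CPM, with medians of 79.8 and 83.2 CPM. Its log2 fold change was 0.04 (95% interval -0.07 to 0.16, edgeR adjusted p = 0.636). Per length, Sin3b stood at 1.49 ± 0.151 times Sin3a in wild types and 1.58 ± 0.148 times in Q140 (SD, n = 6 each). A stretch of 205 exon bases of Sin3a is shared with the antisense gene Man2c1os.

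Hdac1 and Hdac2 encode the class I deacetylases that both arms of the REST complex use to remove acetyl groups from histones. Hdac1 (ENSMUSG00000028800, chromosome 4, 129516104 to 129542713) had 10.5 to 12.2 CPM with a median of 11.1 CPM in wild types, from 291 to 358 reads per animal. In Q140 it had 12.2 to 14.5 CPM with a median of 13.6 CPM, from 285 to 487 reads. The genotypes did not overlap, as for 4.59% of all genes tested, although the nearest animals, wild type 4 at 12.18 CPM and Q140 animal 4 at 12.19 CPM, were all but equal. Within a sex the gap was wider. Wild type females had 10.5, 10.5 and 11.0 CPM against 12.2, 12.7 and 13.2 CPM in Q140 females, and wild type males 11.3, 11.4 and 12.2 CPM against 13.99, 14.2 and 14.5 CPM in Q140 males.

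Hdac1 thus rose by a fold of 1.21 (95% interval 1.12 to 1.30, log2 fold change 0.27, SE 0.0512, edgeR adjusted p = 0.00445). It passed in 26 of 28 other ways of processing the data. One exception was a fit to the 9 animals with the prefixes RFckQ and RFQ, with the prefix as a term, where its log2 fold change was 0.20 (edgeR adjusted p = 0.325). In that fit 81 of 17814 genes passed, and Htt did not (log2 fold change -0.33, edgeR adjusted p = 0.0683). Without Q140 animals 1 and 2 the log2 fold change of Hdac1 was 0.26 (edgeR adjusted p = 0.0394), and without wild types 3 and 6 it was 0.26 (edgeR adjusted p = 0.0346). The other exception, added after the data were seen, was a fit to the 5 animals numbered 150 and 161 with the number as a block, where the log2 fold change of Hdac1 was 0.23 (edgeR adjusted p = 0.753). In that fit 1 of 18126 genes passed, and Htt did not (log2 fold change -0.31, edgeR adjusted p = 0.623). Among animals numbered 150 Hdac1 was 10.5 CPM in the wild type and 12.2 CPM in Q140, and among those numbered 161 it was 12.2 CPM in the wild type and 13.99 and 14.5 CPM in Q140.

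Some oligodendrocyte markers rose and some neuron markers fell beside Hdac1. Of 8 neuron markers 5 were lower and 0 higher, against 6.69% and 4.5% of all genes tested. Their summed levels were 11132 to 12489 CPM in wild types and 8752 to 10151 CPM in Q140. This sum separated the genotypes (two-sided exact permutation test, p = 0.00216, which is the lower limit for groups of 6, and 0.0108 adjusted over 10 marker sums). Of 8 oligodendrocyte markers 4 were higher and 0 lower. Their sums were 3443 to 4874 CPM in wild types and 3921 to 5605 CPM in Q140 (exact permutation p = 0.110, adjusted 0.184). The sum of 8 piriform excitatory neuron markers, of which 3 were lower and 0 higher, was lower in Q140 (exact permutation, adjusted p = 0.0108). Slc17a7 is in both neuron lists, so their sums are not independent. The adjusted permutation p was 0.101 for the sum of oligodendrocyte precursor markers and 0.152 for that of microglia markers, both sums higher in Q140. It was 0.135 for the astrocyte sum, lower in Q140, and 0.260 to 0.394 for the other lists. Of the 8 astrocyte markers 1 was higher and 1 lower, with 5 log2 fold changes above 0 and 3 below. The animal with the highest Hdac1, Q140 animal 3, had the highest oligodendrocyte sum, 5605 CPM. Q140 animal 5, at 13.99 CPM of Hdac1, had the lowest oligodendrocyte sum of its group, 3921 CPM. No marker of these lists was at 0, and the part of these cells in the Hdac1 level was not tested.

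The 5 genes most like Hdac1 over the 12 animals were Mif4gd (r = 0.952), Sgsh (0.946), Metap1d (0.946), Sptssa (0.939) and 1700047M11Rik (0.937). All 5 were higher in Q140, with log2 fold changes from 0.20 for Sptssa and Metap1d to 0.64 for 1700047M11Rik (edgeR adjusted p from 0.000715 to 0.0171). They were chosen for likeness to Hdac1, which itself separated the genotypes, so this direction largely follows from the choice. The animals share genotype, sex and tissue composition in this measure too. Mif4gd encodes a partner of translation factors for histone messages, Sgsh a lysosomal sulfatase of heparan sulfate, and Sptssa a small subunit of the first enzyme of sphingolipid synthesis.

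Hdac2 (ENSMUSG00000019777, chromosome 10, 36974544 to 37001889) had 74.7 to 82.0 CPM with a median of 78.8 CPM in wild types and 80.4 to 83.9 CPM with a median of 83.1 CPM in Q140. All 6 Q140 animals were above the wild type mean of 78.6 CPM, and the ranges overlapped. The log2 fold change was 0.07 (95% interval 0.0034 to 0.14, edgeR adjusted p = 0.168) and did not pass. With total counts alone as the scaling it was 0.12 and passed (edgeR adjusted p = 0.0285), as it did on log2 FPKM, which has no correction for library composition. Hdac1 stood at 0.184 ± 0.0121 of Hdac2 in FPKM in wild types and 0.211 ± 0.0156 in Q140 (SD, n = 6 each), a ratio that needs no scaling between libraries. It ran from 0.166 to 0.203 in wild types and from 0.193 to 0.234 in Q140, so the groups overlapped.

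The genes of the histone demethylase and the histone methyltransferase showed no difference that passed. Kdm1a (ENSMUSG00000036940, chromosome 4, 136550540 to 136602723), the demethylase of histone H3 lysine 4, had 56.5 to 64.9 CPM in wild types and 54.2 to 62.3 CPM in Q140, with medians of 58.8 and 59.1 CPM. Its log2 fold change was -0.02 (95% interval -0.11 to 0.07, edgeR adjusted p = 0.799), with either sign among the other ways of processing the data. Ehmt2 (ENSMUSG00000013787, chromosome 17, 34898469 to 34914052), the methyltransferase of histone H3 lysine 9, had 185 to 220 CPM and 184 to 213 CPM, with medians of 189 and 198 CPM. Its log2 fold change was 0.02 (95% interval -0.09 to 0.13, edgeR adjusted p = 0.847), and -0.0027 without Q140 animal 3.

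**Figure D2:**
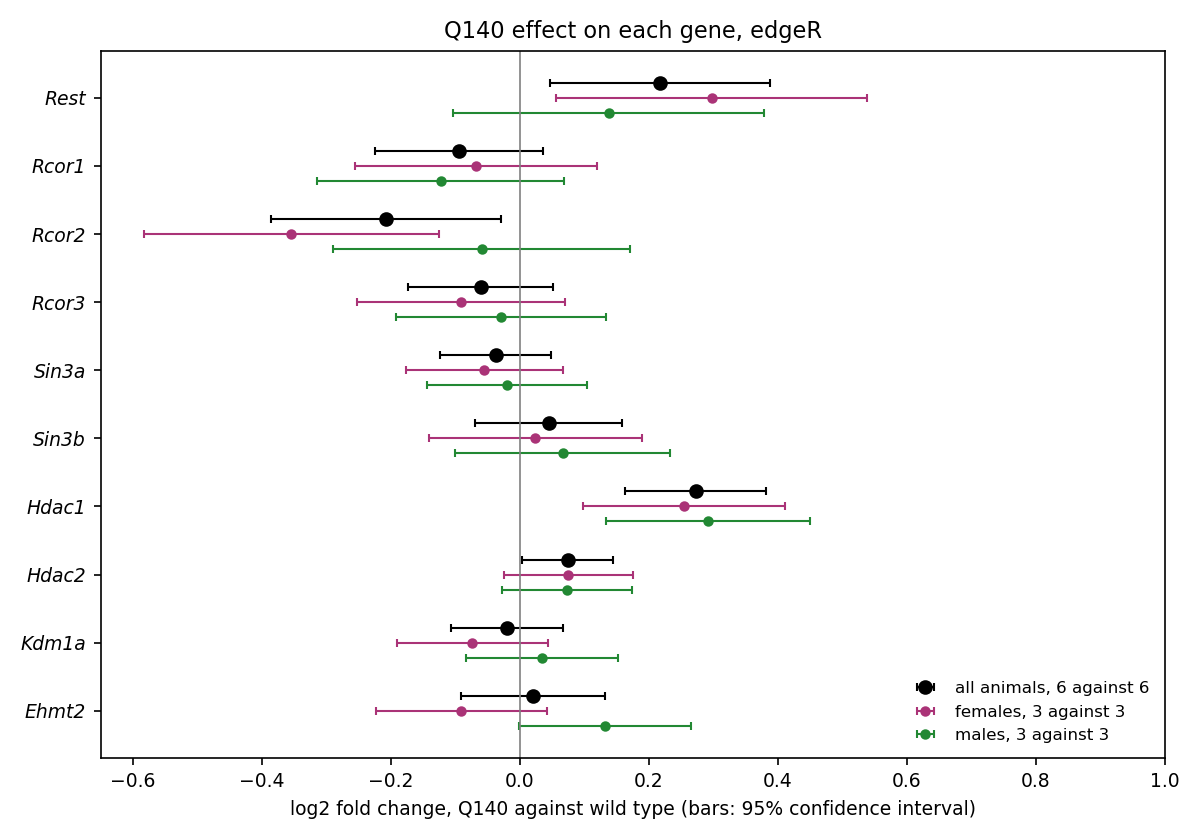
Log2 fold change of Q140 against wild type (x axis) for each gene (y axis), with 95% confidence intervals, over all animals (black) and within females and males (colours). Hdac1 lies at 0.27 over all animals, 0.25 in females and 0.29 in males, and Rcor2 at -0.35 in females and -0.06 in males.

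The effect of Q140 was then taken in each sex. In females 0 of 10 genes passed by edgeR, against 7.05% of all genes, with 3 of 10 at an unadjusted p below 0.05 against 23.7%. These were Hdac1 (log2 fold change 0.25, adjusted p = 0.0524), Rcor2 (-0.35, adjusted p = 0.0621) and Rest (0.30, adjusted p = 0.125). In males 0 of 10 passed, against 1.4%, with 1 of 10 unadjusted against 16.6%, again Hdac1 (0.29, adjusted p = 0.0701). Rcor2 in females passed in 2 other settings, at an adjusted p of 0.0343 with no filter on low counts and of 0.0068 without Q140 animal 4. Without Q140 animal 1 its adjusted p was 0.183, and without Q140 animal 2 it was 0.237. DESeq2 was not run on the contrasts by sex.

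The difference of the Q140 effect between males and females passed for 0 of 10 genes by edgeR, and for 0% of all genes. At an unadjusted p below 0.05 it was 1 of 10 against 9.21%. That gene was Ehmt2, with a difference of 0.22 (male effect minus female effect, 95% interval 0.03 to 0.41, adjusted p = 0.489). Its levels were 184, 184 and 199 CPM in Q140 females against 188, 195 and 220 CPM in wild type females, and 197, 206 and 213 CPM in Q140 males against 185, 188 and 189 CPM in wild type males. For Rcor2 the difference was 0.30 (95% interval -0.03 to 0.62) and for Hdac1 0.04 (95% interval -0.19 to 0.26).

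Between the sexes themselves, 0 of 10 genes passed by edgeR, against 0.654% of all genes, and 6 of 10 had an unadjusted p below 0.05, against 13.5%. Higher in males without passing were Rest, Rcor3 (log2 fold change 0.19, adjusted p = 0.138), Rcor2 (0.19, adjusted p = 0.334) and Hdac1 (0.14, adjusted p = 0.251). Lower in males without passing were Sin3b (-0.13, adjusted p = 0.307) and Sin3a (-0.10, adjusted p = 0.308). The prefix RFQ was borne by males alone, so that this prefix and sex overlap.

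Levels can be ordered per length. On the FPKM scale, mean ± SD over the 12 animals, Ehmt2 was first at 35.6 ± 2.45, at a level above that of 92.1% of the genes tested. Hdac2 followed at 18.03 ± 0.913, then Kdm1a at 11.4 ± 0.665 and Sin3b at 11.3 ± 0.856. Kdm1a and Sin3b could not be ordered, since Kdm1a was the higher in 8 of 12 animals. Sin3a at 7.40 ± 0.336 and Rcor2 at 7.34 ± 0.988 could not be ordered either, with Sin3a higher in 5 of 12. Rcor1 had 4.77 ± 0.370, Hdac1 3.58 ± 0.491, Rcor3 2.04 ± 0.200 and Rest 1.16 ± 0.202.

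Rest was the lowest of the 10 in every animal, at 0.878 to 1.47 FPKM, and above 24.0% of the genes tested. Its corepressors thus spanned from Rcor3 to Ehmt2 above it. Rcor1 exceeded Hdac1 in 11 of 12 animals, and every other neighbouring pair not named above kept its order in all 12.

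**Figure D3:**
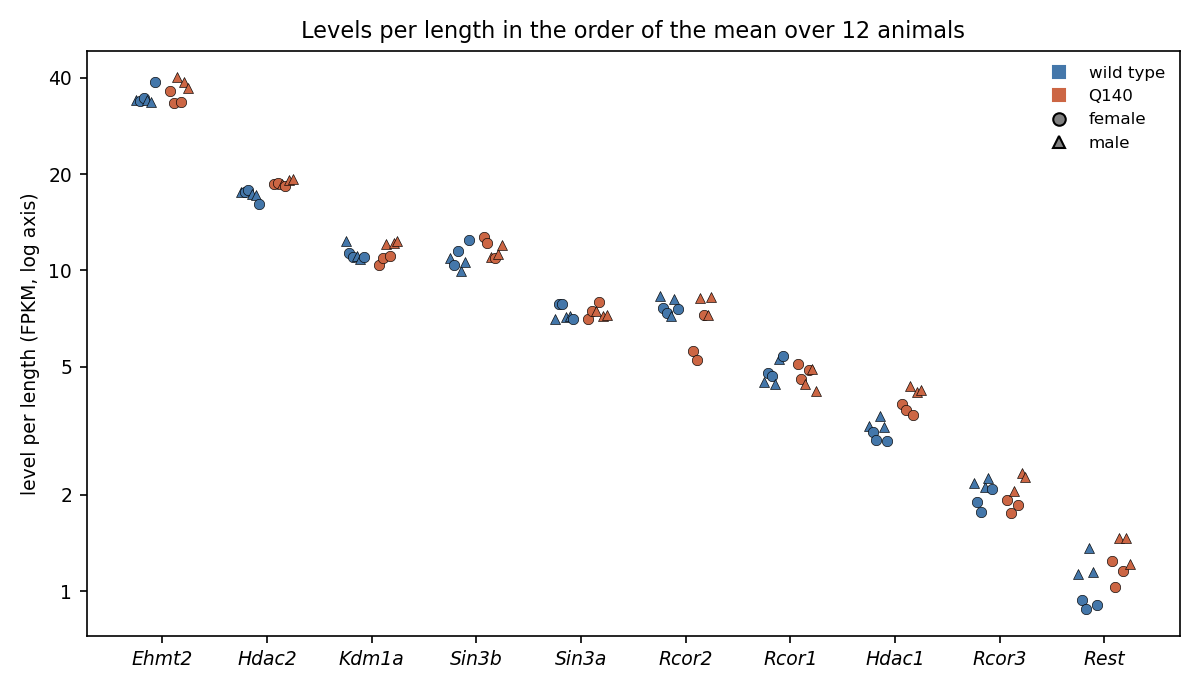
Level per length in FPKM (y axis, log scale) of the 10 genes (x axis, ordered by the mean over 12 animals) in each animal, coloured by genotype and shaped by sex. Ehmt2 lies between 33.4 and 40.05, Rest between 0.878 and 1.47, and the neighbouring pairs Kdm1a with Sin3b and Sin3a with Rcor2 overlap.

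Partners of the corepressors were followed in lists made with earlier results of these data known. In the fit to the prefixes RFckQ and RFQ, and in that to the animals numbered 150 and 161, no gene of these lists passed. The counts over 26 other settings given below leave out both fits that use the number. Among LSD1-CoREST and BHC complex partners 0 of 9 tested genes were higher, 2 lower and 7 did not pass, which is 22.2% lower against 6.69% of all genes tested. Phf21b, a paralog of the histone reader BHC80, was lower in Q140, at 12.8 ± 3.64 CPM against 16.8 ± 4.14 CPM in wild types (-0.40 on the log2 scale, SE 0.0955, n = 6 each, edgeR adjusted p = 0.0177). Zmym3, a zinc finger subunit, went from 155 ± 7.74 to 139 ± 8.74 CPM (-0.16, adjusted p = 0.0468). Zmym3 passed in 8 of 26 other settings and Phf21b in 23. Phf21b did not pass without wild types 3 and 6 (-0.34, adjusted p = 0.108).

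Among 18 SIN3 complex partners 0 passed by edgeR, against 11.2% of all genes tested. At an unadjusted p below 0.05 there were 4, against 26.7%, and by DESeq2 0, against 13.7%. The smallest p was that of Ing2, a reader of histone H3 methylation, at 25.1 ± 1.49 CPM in wild types against 22.6 ± 1.94 CPM in Q140 (log2 fold change -0.15, edgeR adjusted p = 0.121). Of 16 G9a partners and other genes of histone H3 lysine 9 methylation 1 was higher, 0 lower and 15 did not pass, which is 6.25% higher, near the 4.5% of all genes tested. This was Wiz, the zinc finger partner that holds G9a on chromatin, at 62.2 ± 1.46 CPM in wild types against 69.4 ± 3.48 CPM in Q140 without overlap (0.16, SE 0.0376, edgeR adjusted p = 0.0172). The antisense gene Gm26858 shares 22.1% of the exon bases of Wiz, so their reads cannot be told apart.

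Of 13 other REST cofactors 1 was lower, 0 higher and 12 did not pass, which is 7.69% lower, near the 6.69% of all genes tested. L3mbtl1, a reader of methylated histones, fell from 28.4 ± 2.28 CPM in wild types to 17.9 ± 3.36 CPM in Q140 (log2 fold change -0.68, SE 0.104, edgeR adjusted p = 0.00128). Its wild types had 25.7 to 31.9 CPM and its Q140 animals 12.2 to 21.5 CPM, and the groups did not overlap. Of the 11 other histone deacetylase genes 1 was higher, 1 lower and 9 did not pass, or 9.09% in each direction against 4.5% higher and 6.69% lower of all genes tested. Sirt2, a deacetylase of tubulin abundant in myelin, rose from 128 ± 4.25 to 158 ± 12.5 CPM (0.30, edgeR adjusted p = 0.00244), and Hdac7, a class IIa enzyme, fell from 53.0 ± 2.05 to 44.4 ± 6.13 CPM (-0.27, adjusted p = 0.0221). Sirt2 thus moved beside the oligodendrocyte markers given above, and the part of those cells was not tested. Hdac7 did not pass without Q140 animals 1 and 2 (-0.25, adjusted p = 0.0864) or without wild types 3 and 6 (-0.20, adjusted p = 0.128), nor without Q140 animal 2 alone (-0.22, adjusted p = 0.0569) or wild type 3 alone (-0.23, adjusted p = 0.0536).

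The list of genes for REST turnover, location and splicing held 18 tested genes, of which 1 was higher, 3 lower and 14 did not pass. That is 5.56% higher and 16.7% lower, against 4.5% and 6.69% of all genes tested, and Htt, the targeted gene, is 1 of the 3 lower. The other 3 that passed were host transcripts of microRNAs that are known to be repressed by REST and, for miR-9 and its star strand, to target Rest and Rcor1. Mir124a-1hg went from 242 ± 17.9 to 207 ± 20.4 CPM (log2 fold change -0.22, edgeR adjusted p = 0.0323) and Mir9-3hg from 43.2 ± 4.38 to 37.7 ± 4.97 CPM (-0.20, adjusted p = 0.0438). Mir124-2hg went the other way, from 87.0 ± 4.83 to 96.0 ± 4.51 CPM (0.14, adjusted p = 0.0440). These calls held in few other settings. Mir124a-1hg and Mir124-2hg each passed in 11 of 26 other settings and Mir9-3hg in 7. Without Q140 animals 1 and 2, and likewise without wild types 3 and 6, Htt alone of the list passed.

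The mature strands of miR-9 are encoded inside Mir9-3hg and are shown since they link the host transcript to the Rest and Rcor1 messages. They are from RefSeq on GRCm38.p6, where the 5p strand lies at chr7:79505279-79505301 and the 3p strand at chr7:79505318-79505339, both on the plus strand, and the seed, bases 2 to 8, is in capitals:
miR-9-5p: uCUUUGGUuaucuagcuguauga
miR-9-3p: aUAAAGCUagauaaccgaaagu
Mir9-1 on chromosome 3 and Mir9-2 on chromosome 13 encode the same mature letters. Mature microRNAs were not measured in these libraries.

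Neuronal genes with a known RE1 element or known REST repression were the list with the most calls. Of 43 tested genes 12 were lower, 0 higher and 31 did not pass, which is 27.9% lower against 6.69% of all genes. The median log2 fold change was -0.15, with 34 genes below 0 and 9 above. By DESeq2 14 were lower and 1 higher. The list was chosen with earlier results of these data known, and 3 of its 45 genes are also neuron markers, so its count is no independent evidence of a direction. Scaling by total counts alone gave 8 lower, and log2 FPKM with either pseudocount gave 7 lower and 1 higher. The count of lower genes was 6 to 13 with 1 animal left out, 5 without Q140 animals 1 and 2, 9 without wild types 3 and 6, and 0 in the fit to the prefixes RFckQ and RFQ. The single animals whose loss brought it to 6 or 7 were Q140 animals 1, 2 and 3 and wild types 1 and 2.

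Unc13a, which primes synaptic vesicles, fell from 574 ± 42.1 CPM in wild types to 455 ± 29.5 CPM in Q140 (log2 fold change -0.34, edgeR adjusted p = 0.00193). Cdk5r1, the activator of the kinase CDK5, fell from 395 ± 19.4 to 334 ± 23.1 CPM (-0.24, adjusted p = 0.00237). Chgb, a protein of secretory granules, fell from 874 ± 86.3 to 650 ± 58.4 CPM (-0.43, adjusted p = 0.00250). Snap25, of the vesicle fusion machinery, fell from 3077 ± 171 to 2416 ± 207 CPM (-0.35, adjusted p = 0.00255). These 4 were named for the smallest p of the list, a choice that favours separation and stable calls. None of them overlapped between the genotypes (SD, n = 6 each). Of all genes tested 4.59% did not overlap, and of this list 5 genes on the lower side and 1 on the higher. Each of the 4 was among the lower ones in 25 of 26 other settings, the exception being the prefix fit. The neuron marker sum given above, which itself includes Snap25, was lower in the same animals. The part of neuron content in these values was not tested.

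**Figure D4:**
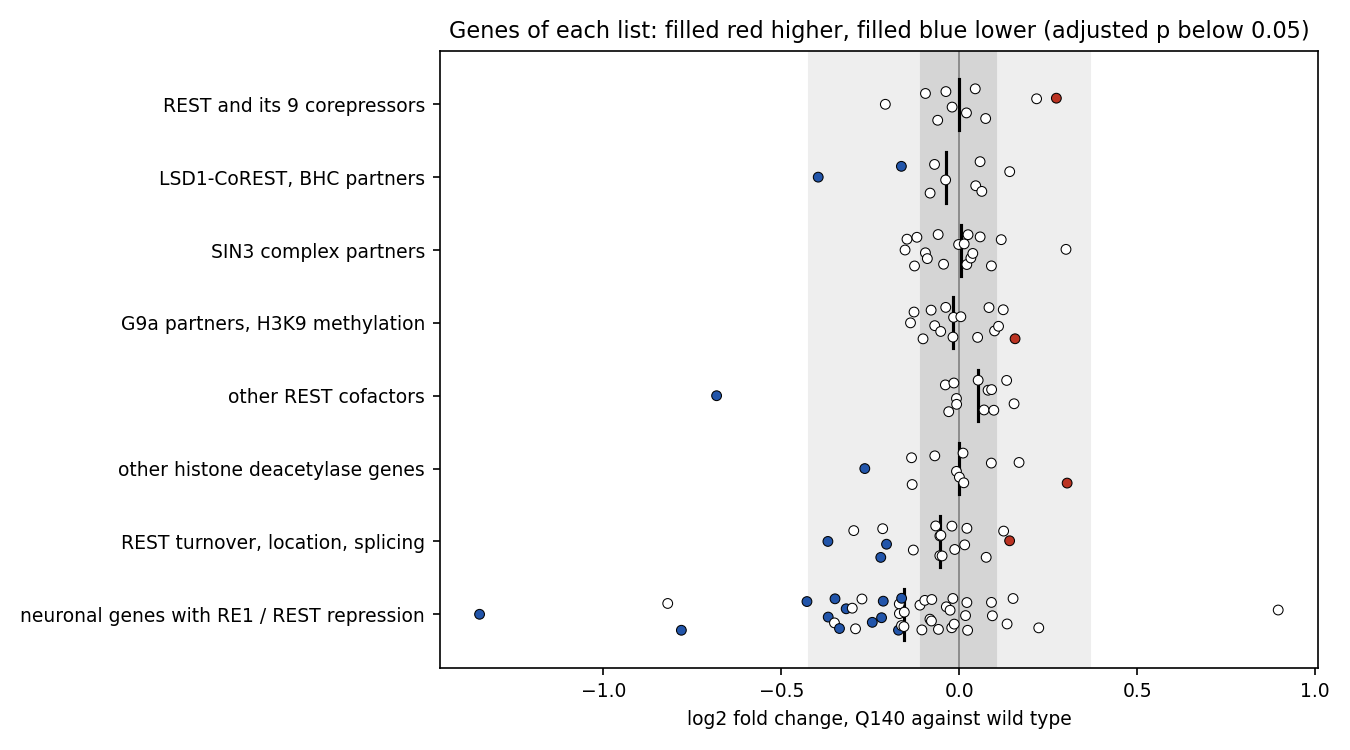
Log2 fold change of Q140 against wild type (x axis) for each tested gene (points) of the 8 lists (y axis), filled where the gene passed, with the list's median as a bar and the middle 50% and 90% of all tested genes as dark and light bands. The medians of the 10 genes and of the neuronal RE1 list lie at 0.0001 and -0.15.

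The genes picked by letters can be set beside that list, though it already held Snap25 and Gria2. Snap25 came in through the window of Gm32659 inside it, not through a match in a window of its own. Of the 16 genes whose windows held the RE1 core and Snap25, 14 were tested, with 10 that did not pass, 4 lower and 0 higher. Over all genes tested 6.69% were lower and 4.5% higher. The median log2 fold change was -0.07. The 4 were Snap25, Hrh3, a presynaptic histamine receptor (from 69.6 ± 6.61 to 51.6 ± 8.31 CPM, -0.43, edgeR adjusted p = 0.00321), Ttc9b (from 131 ± 12.95 to 108 ± 6.66 CPM, -0.27, adjusted p = 0.0117) and Osbp2 (from 132 ± 13.99 to 114 ± 6.76 CPM, -0.22, adjusted p = 0.0477). Gria2 stood at 733 ± 34.5 CPM in wild types against 695 ± 47.1 CPM in Q140 (-0.08, adjusted p = 0.358). Gad2 was 184 ± 44.2 and 187 ± 31.5 CPM (0.02, adjusted p = 0.964). With 2 animals left out, either Q140 animals 1 and 2 or wild types 3 and 6, 2 genes with the core were lower, and in the prefix fit 0. The genes with the core thus included some that fell and some, like Gad2, at nearly equal levels.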

How the data were processed

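RNA from a Qiagen RNeasy kit went into TruSeq stranded libraries, per the labels' protocols. Tools in the submitters' processing notes were HTSeq 0.12.3, SAMtools 1.10 and STAR 2.7.5c, with the builds GRCm38 and mm10. The authors deposited raw read counts per gene, and FPKM values with no correction for library composition. Counts were tested with edgeR 4.0.16 (R 4.3.3): TMM factors, the default expression filter by genotype, quasi-likelihood test, sex as a covariate, two-sided, Benjamini-Hochberg adjustment over all genes tested, threshold 0.05. Effects within a sex and their difference came from a model of 4 groups over all animals. Marker sums were compared by exact permutation. Alternatives were other scalings and filters, DESeq2 1.42.0, limma 3.58.1 (voom, and log2 FPKM with pseudocounts of 0.1 and 1), other covariates and animals left out. The main fits were tested on simulated counts. A floor of 3 counts is 0.0852 to 0.153 CPM, for counting error only.

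The genes and lists were chosen with earlier results of these data known. Named were the 10 genes, Htt, the genes of each list that passed (up to 4 by smallest p, else the 1 with the smallest p), and the 5 genes most like Rest and each gene that passed. Coordinates are from GENCODE M21, and promoter and microRNA sequences from RefSeq on GRCm38.p6. Scn2a was matched as Scn2a1 and Sinhcaf as Fam60a, by identifier.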

Additional observations from a re-analysis of the deposited data

Results flagged for a closer look

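The Ehmt2 level of wild type 6, 220.1 CPM, stood apart from the other wild types, which ended at 195 CPM: the gap took 0.72 of the whole range of its group, above 0.625, the value that Dixon's test allows for 6 animals. The Htt level of wild type 4, 179.9 CPM, was under the rest of its group, which started from 197 CPM, with a gap of 0.72 of the range. Both lie among 22 groups looked at (11 genes in 2 genotypes), and chance alone flags about 1 in 20. Wild type 6 also had the lowest sum of striatal markers, 313 CPM.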

How the results depend on the processing

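Of 280 values of the 10 genes under alternatives, 260 kept their direction and side of the threshold, 5 came to pass, 2 ceased to pass and 13 changed sign. The number of the 10 genes that passed by genotype, 1 as reported, was 3 with total counts alone, 2 on log2 FPKM with either pseudocount, 0 in the fit to the prefixes RFckQ and RFQ, and 1 to 2 with 1 animal left out. In females it was 0 as reported, 1 with no filter and 0 to 1 with 1 animal left out. In males, for the difference between the sexes, and between the sexes it was 0 in all 14 alternatives run. Total counts alone moved the median log2 fold change of all genes to 0.05. Sin3a turned to 0.0092 with total counts alone and to 0.0097 and 0.0086 on log2 FPKM. Kdm1a turned to 0.0268 with total counts alone, 0.0282 and 0.0263 on log2 FPKM, 0.0203 in the prefix fit and 0.0110 without Q140 animals 1 and 2, and ran from -0.0441 to 0.0012 with 1 animal left out. Ehmt2 ran from -0.0027 (without Q140 animal 3) to 0.0636 with 1 animal left out. The cause of these changes was not tested. The replicate numbers follow the order of deposit and pair nothing, but the number in the animal names, of no stated meaning, can serve as a block. With it as a fixed replicate block in the 5 animals numbered 150 and 161, 0 of the 10 genes passed, and Rcor1, Rcor3 and Kdm1a turned to 0.0254, 0.0152 and 0.0310. As a random block over all 12 animals (limma voom) 1 passed, Hdac1, at an adjusted p of 0.00395. Both were chosen after the data were seen. Deviations of animals that share a number correlated at -0.42 to 0.04 across genes. Deviations from means of few animals lean to negative correlations, so this range does not show whether the number marks relatives. At 172 to 357 reads per animal, Rest is the gene whose precision depth limits most.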
